A study of Mus musculus with 6 samples.

Results

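The bone morphogenetic protein (BMP) system was followed through 9 genes in cultured mouse lung fibroblasts: the ligand genes Bmp2, Bmp4 and Bmp6, the secreted antagonist Grem1 and the secreted modulator Bmper, the membrane pseudoreceptor Bambi, and the response genes Id1, Id2 and Id3. They were taken by symbol from a table of 45706 genes, and all 9 were among the 14635 genes expressed enough to test. The cells came from lungs of wild-type mice that were cut up, digested with collagenase and trypsin, and cultured for 7 days before purification. In 3 control samples the cells had no DKK1, and in 3 DKK1 samples they received recombinant murine DKK1, 30 ng/ml over 24 hours. Strain, age, sex, the number of mice, any vehicle in the controls and whether replicates are separate animals are not given in the labels, so p-values measure the spread between these samples, which may be technical. Libraries held from 22565917 to 34727102 counts.

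BMPs are secreted dimers of the TGF-beta superfamily. They assemble type I and type II receptor kinases, which phosphorylate SMAD1, SMAD5 and SMAD9, and these enter the nucleus with SMAD4 and switch on target genes, among which the ID genes are the best known. ID proteins have a helix-loop-helix but no DNA-binding region, and they hold E proteins away from DNA. Gremlin, the product of Grem1, binds BMP2 and BMP4 outside the cell and keeps them from their receptors, and it is known in the lung for its raised level in fibrosis. DKK1 blocks Wnt signalling at the co-receptors LRP5 and LRP6, a pathway that is wired to the BMP system at several points, and how the BMP genes of these cells respond to it is what the comparison asks.

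Of the 9 genes, 6 had an entry in the promoter table from RefSeq (GRCm38.p6), which gives 250 bases before and 50 after the start of the gene in that annotation. Those of Grem1, called higher after DKK1 with and without pairing of the replicates, of Bmper, called higher with pairing alone, and of a pair of ID genes called in neither are shown for comparison, 5′ to 3′ on the strand of the gene. The windows are chr2:113758599-113758898 on the minus strand (Grem1), chr9:23222826-23223125 on the plus strand (Bmper), chr12:25096043-25096342 on the minus strand (Id2) and chr4:136143572-136143871 on the plus strand (Id3). The starts of Id2 and Id3 in RefSeq lie inside the genes as GENCODE draws them, so that both windows lie wholly within the GENCODE gene. Capitals mark the GC-rich SMAD motif GGCGCC, the SMAD box CAGAC and the TCF/LEF motif CTTTGA, each searched on both strands.
Grem1: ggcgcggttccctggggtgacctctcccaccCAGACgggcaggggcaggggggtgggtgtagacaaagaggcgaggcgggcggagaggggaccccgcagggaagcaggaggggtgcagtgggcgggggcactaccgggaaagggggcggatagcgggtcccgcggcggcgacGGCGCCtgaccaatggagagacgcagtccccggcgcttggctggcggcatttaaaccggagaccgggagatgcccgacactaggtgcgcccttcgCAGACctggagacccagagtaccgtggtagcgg
Bmper: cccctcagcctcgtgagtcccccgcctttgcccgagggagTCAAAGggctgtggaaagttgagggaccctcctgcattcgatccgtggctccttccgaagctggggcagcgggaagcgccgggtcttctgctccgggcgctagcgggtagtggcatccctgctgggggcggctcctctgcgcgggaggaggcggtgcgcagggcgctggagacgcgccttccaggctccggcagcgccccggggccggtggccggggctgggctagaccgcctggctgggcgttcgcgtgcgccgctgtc
Id2: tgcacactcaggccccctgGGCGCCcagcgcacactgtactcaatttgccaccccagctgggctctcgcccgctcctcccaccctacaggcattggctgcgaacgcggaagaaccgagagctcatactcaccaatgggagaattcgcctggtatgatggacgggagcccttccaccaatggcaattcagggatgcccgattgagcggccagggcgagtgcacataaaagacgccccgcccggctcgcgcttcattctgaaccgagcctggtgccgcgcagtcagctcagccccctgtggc
Id3: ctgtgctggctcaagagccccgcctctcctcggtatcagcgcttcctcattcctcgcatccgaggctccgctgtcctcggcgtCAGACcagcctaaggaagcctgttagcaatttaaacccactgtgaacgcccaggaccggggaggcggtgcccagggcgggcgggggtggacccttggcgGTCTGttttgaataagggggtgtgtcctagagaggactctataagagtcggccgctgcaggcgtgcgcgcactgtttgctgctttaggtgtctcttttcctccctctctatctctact
GGCGCC was found once in Grem1 and once in Id2, and in 11.9% of all 32851 promoters of that table. CAGAC occurred 2 times each in Grem1 and Id3 and is in 49.6% of promoters. CTTTGA occurred once, in Bmper on the reverse strand, and is in 16.0% of promoters. The E-box CANNTG, the sequence class that E proteins bind, lay once in Id2, in none of the other 3 windows, and in 72.3% of promoters. All 4 windows were rich in G and C, from 60.0% (Id3) to 72.7% (Bmper), against a median of 52.7%. A match of letters is a description of the window and not a binding site.

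Levels of different genes were compared per length, as CPM (a gene's counts scaled by the total of its library) per kilobase of merged exons. In control cells Grem1 stood highest of the 9, at 208 ± 12.1 CPM per kilobase (SD, n = 3), and Id3 followed at 127 ± 11.7, Id1 at 74.4 ± 10.8, Id2 at 42.7 ± 4.64 and Bmper at 37.8 ± 2.67. The ligand genes were far lower. Bmp4 measured 12.7 ± 0.774 CPM per kilobase, Bmp2 0.854 ± 0.213 and Bmp6 0.408 ± 0.0975, with Bambi at 2.45 ± 0.304. The order was the same in DKK1 cells, and also in control cells with the longest transcript as the length. Neighbours in this order did not overlap between libraries of a group, except Id2 and Bmper, whose ranges overlapped in both groups. Bmp4 was the most abundant of the 3 ligand transcripts.

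**Figure D1:**
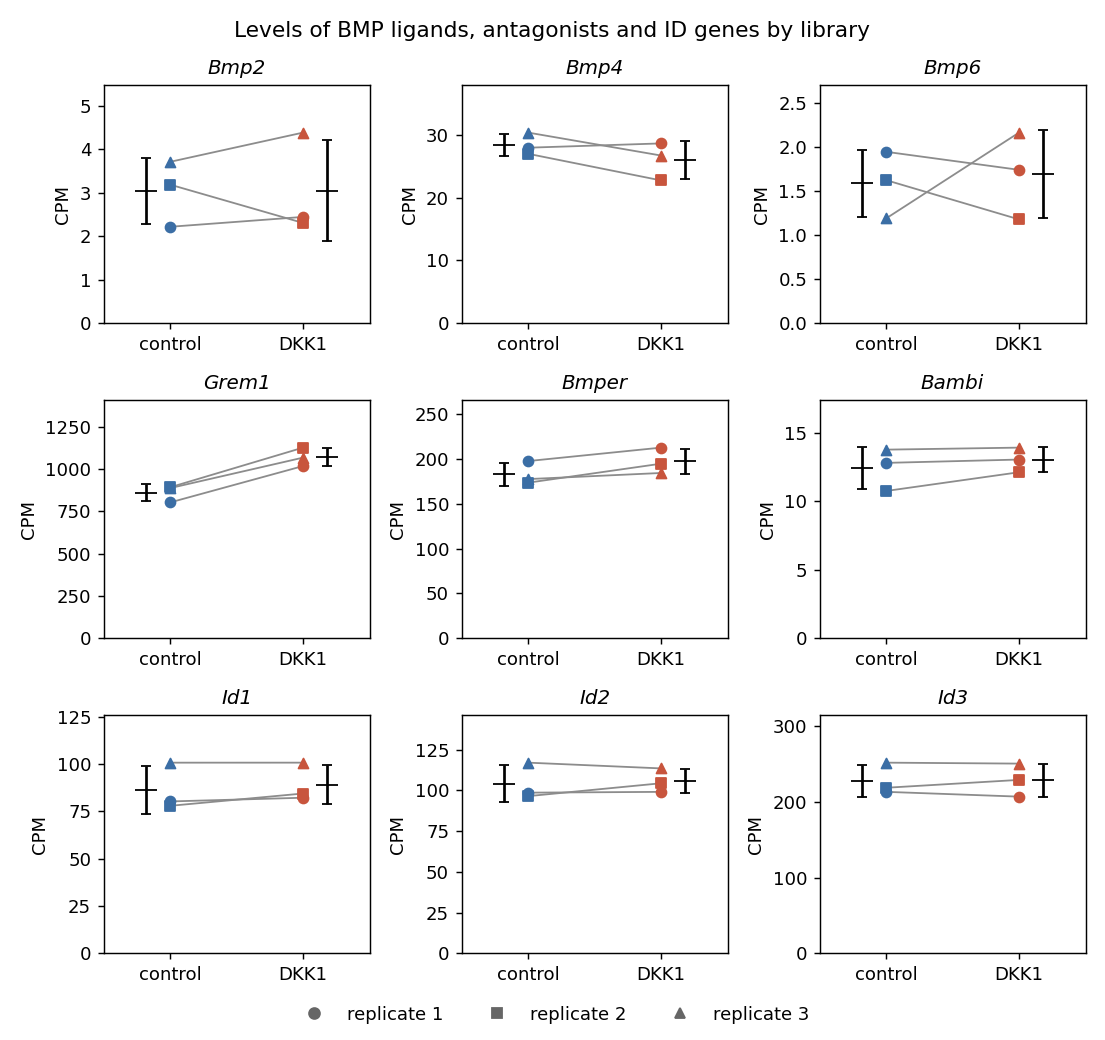
Level of each gene in CPM (y axis, from 0) in the 3 control and 3 DKK1 libraries (x axis). Symbols give the replicate number, grey lines join libraries with the same number, and bars beside the points are the mean and SD (n = 3). Grem1 is the one gene whose 3 DKK1 libraries, from 1018 to 1127 CPM, all lie above the 3 control libraries, from 803 to 893 CPM.

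The antagonist Grem1 (ENSMUSG00000074934, chr2:113746164-113758646, minus strand) was raised by DKK1. Its level was 803, 893 and 888 CPM in control replicates 1, 2 and 3, and 1018, 1127 and 1068 CPM in the DKK1 replicates. The groups did not overlap, which held for 9.4% of all tested genes in this direction; no member lay wholly below its controls, where 7.14% of all tested genes did. The rise was 1.24-fold, or 0.31 as a log2 fold change (95% interval 0.19 to 0.43, SE 0.05; quasi-likelihood test of edgeR, adjusted p = 0.0385), from a mean of 861 ± 50.4 to 1071 ± 54.6 CPM (SD, n = 3 each). Grem1 was the only one of the 9 genes called (adjusted p under 0.05), where 0.697% of all tested genes were called higher and 0.198% lower. Same-numbered libraries deviated together from their group means, so a paired fit with the replicate number as a block was also made. In CPM the DKK1 library of each pair held 1.27, 1.26 and 1.20 times the Grem1 level of its control. The paired fit gave a log2 fold change of 0.31, an SE of 0.02 and an edgeR adjusted p of 3.26e-07. Leaving out any 1 of the 6 libraries ended the unpaired call (edgeR adjusted p from 0.0751 to 0.127, log2 fold change from 0.26 to 0.34). Leaving out any 1 pair left the paired call in place (edgeR adjusted p of 0.000297 or less).

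Bmper (ENSMUSG00000031963, chr9:23223076-23485200, plus strand) encodes a secreted, chordin-like protein that can restrain or promote BMP signalling. It measured 197, 173 and 177 CPM in the control replicates and 212, 195 and 184 CPM in the DKK1 replicates. The groups overlapped, since control replicate 1 stood above DKK1 replicates 2 and 3, but DKK1 was higher in each of the 3 pairs, by 1.08, 1.12 and 1.04 times. The log2 fold change of 0.10 was not called without pairing (SE 0.07, edgeR adjusted p = 0.652) and was called with it, at 0.11 (SE 0.03, edgeR adjusted p = 0.0193). The unpaired value was 0.05 without DKK1 replicate 1 and 0.16 without control replicate 1. The paired fit thus called 2 of the 9 genes, both higher, where 9.42% of all tested genes were called, 4.96% higher and 4.46% lower. In addition to these 2, Bambi and Id1 were higher in DKK1 in all 3 pairs, which makes 4 of 9 members against 22.3% of all tested genes, though Id1 was nearly equal in pair 3. Bmper lost the paired call when pair 2 was left out (edgeR adjusted p = 0.279) and in a paired DESeq2 fit (adjusted p = 0.276).

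Among marker lists of cell types, the sum of the smooth muscle and pericyte genes was lower in DKK1 in each of the 3 pairs. The 6 markers summed to 9013, 8942 and 10004 CPM in control replicates 1 to 3 and to 7622, 7762 and 8944 CPM in the DKK1 replicates. The groups overlapped, since control replicate 2 stood just below DKK1 replicate 3. Of these markers 1 was called lower without pairing and 5 with it. Most of the sum came from Acta2 and Tagln, and the pericyte markers Cspg4 and Rgs5 were low. The 10 leukocyte markers summed to 413, 480 and 834 CPM in control replicates 1 to 3 and to 464, 506 and 886 CPM in the DKK1 replicates, and 3 were called higher and 2 lower with pairing. Of the 9 fibroblast markers, which summed to 13366 to 15064 CPM in control and 12590 to 14255 in DKK1 libraries, 2 were called higher and 5 lower with pairing. Over all tested genes 4.96% were called higher and 4.46% lower with pairing, and 0.198% were called lower without it. The part of these markers in the values of Grem1 and Bmper was not tested. In bulk RNA fewer cells of a type cannot be told apart from less RNA per cell. Whether the lower smooth muscle and pericyte sum arose in other cells or in the fibroblasts themselves was not tested.

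None of the 3 ligand genes was called in either fit. Bmp4 (ENSMUSG00000021835, chr14:46383520-46390669, minus strand), a ligand that Gremlin binds, measured 28.0, 27.0 and 30.4 CPM in the control replicates and 28.6, 22.7 and 26.7 CPM in the DKK1 replicates. DKK1 replicates 2 and 3 lay below all controls and DKK1 replicate 1 lay among them. Without pairing the log2 fold change was -0.13 with an SE of 0.09 (edgeR adjusted p = 0.668), and with pairing -0.14 with an SE of 0.06 (edgeR adjusted p = 0.176). In a paired fit without pair 1, which leaves 2 pairs, it was -0.22 and called (edgeR adjusted p = 0.0077), against -0.08 without pair 2 and -0.12 without pair 3, neither called (adjusted p = 0.684 and 0.435). The unpaired value was -0.05 without DKK1 replicate 2 and -0.21 without DKK1 replicate 1. Its annotated exons overlap those of Gm15217 on the opposite strand, a gene listed at 0 in all 6 libraries.

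Bmp2 (ENSMUSG00000027358, chr2:133552159-133562885, plus strand), the other ligand that Gremlin binds, was low, at 2.22, 3.18 and 3.71 CPM in control and 2.44, 2.30 and 4.38 CPM in DKK1 replicates. These stand for 50 to 101 counts per library. Replicate 3 was the highest of each group, the groups overlapped, and the log2 fold change was -0.02 (95% interval -0.68 to 0.64, edgeR adjusted p = 0.993). Bmp6 (ENSMUSG00000039004, chr13:38345107-38500302, plus strand), a ligand best known for its part in iron regulation, was lower still, from 27 to 50 counts. It stood at 1.95, 1.63 and 1.19 CPM in control and at 1.74, 1.18 and 2.17 CPM in DKK1 replicates, with a log2 fold change of 0.07 whose 95% interval was -0.58 to 0.72 (edgeR adjusted p = 0.970). As fold changes the 95% intervals reached up to 1.55 for Bmp2 and 1.65 for Bmp6 without pairing, and ran from 0.749 to 1.26 for Bmp2 and from 0.702 to 1.52 for Bmp6 with pairing, so changes within these limits could not be resolved. Exons of Bmp6 overlap those of Txndc5 on the opposite strand, which stood at 427 to 461 CPM, and as the strandedness of the counting is not given in the sources used here, the level of Bmp6 is uncertain.

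The level of Grem1 relative to the sum of the 3 ligand transcripts, both per kilobase, was 14.3, 16.2 and 14.4 in control and 17.7, 24.6 and 18.8 in DKK1 replicates. Every DKK1 library lay above every control library. This ratio was not tested, since it contains the Grem1 values described above, and the widest gap, in replicate 2, joins the highest Grem1 with the lowest Bmp4 level.

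Bambi (ENSMUSG00000024232), a membrane protein that resembles a type I receptor without its kinase and dampens BMP and TGF-beta signals, is also known as a Wnt target. It stood at 12.8, 10.8 and 13.8 CPM in control and at 13.05, 12.1 and 13.9 CPM in DKK1 replicates. The groups overlapped, and the log2 fold change of 0.06 was not called (SE 0.10, edgeR adjusted p = 0.899; with pairing 0.07, SE 0.07, adjusted p = 0.669).

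None of the 3 ID genes was called in either fit. Their intervals were narrower with pairing than without it. Without pairing their SEs were 0.105 (Id1), 0.076 (Id2) and 0.078 (Id3), against a median of 0.0773 over all tested genes. Id1 (ENSMUSG00000042745, chr2:152736251-152737410, plus strand) stood at 80.2, 77.9 and 100.7 CPM in control and 82.2, 84.4 and 100.7 CPM in DKK1 replicates. Id2 (ENSMUSG00000020644, chr12:25093799-25097140, minus strand) stood at 98.6, 96.5 and 117 CPM in control and 99.1, 104 and 114 CPM in DKK1 replicates. Id3 (ENSMUSG00000007872, chr4:136143497-136145755, plus strand), the most abundant of them, stood at 213, 219 and 252 CPM in control and 207, 229 and 250.5 CPM in DKK1 replicates. In each gene replicate 3 was the highest library of both groups, and the groups overlapped. Log2 fold changes without pairing were 0.04 (Id1), 0.02 (Id2) and 0.0007 (Id3), with edgeR adjusted p-values of 0.951 or more. With pairing the 95% intervals of the fold change were 0.984 to 1.08 for Id1, 0.967 to 1.07 for Id2 and 0.965 to 1.04 for Id3 (edgeR adjusted p of 0.466 or more). Without pairing they were 0.871 to 1.22, 0.897 to 1.14 and 0.884 to 1.13. A change of the size of the Grem1 rise, 1.24-fold, lies outside all 6 of these intervals. The sign of the small Id3 value flipped under DESeq2 size factors (-0.001).

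**Figure D2:**
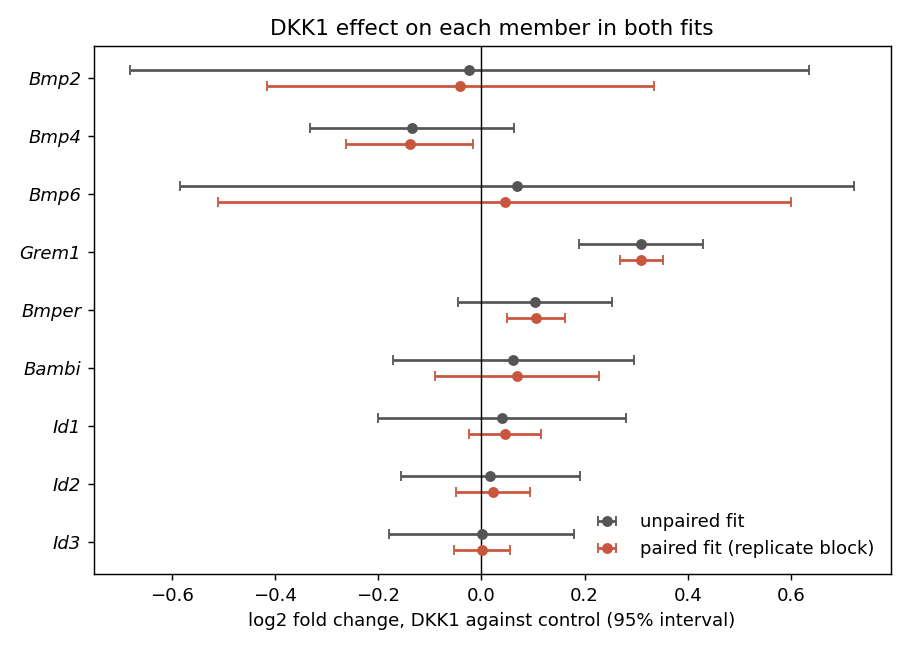
Log2 fold change of each gene, DKK1 against control (x axis), with its 95% interval, from the unpaired edgeR fit (grey) and the fit with the replicate number as a block (red). The intervals of Grem1 lie above 0 in both fits. Those of the ID genes span 0 and are narrower in the paired fit, and those of Bmp2 and Bmp6 are wide.

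The other genes of the pathway were taken from a list of 59 by role, of which 46 were tested. Without pairing, edgeR called 0 of them, and so did DESeq2 and limma-voom; 7 had an unadjusted p under 0.05 in edgeR, against 10.6% of all tested genes. The median log2 fold change was 0.02, against -0.0009 over all tested genes. With pairing 5 of 46 were called higher and 7 lower, against 4.96% and 4.46% of all tested genes. Those counts became 2 higher and 1 lower when pair 2 was left out, with Chrdl2, Tgfbr3 and Htra1 the called genes, and 2 higher and 0 lower in a paired DESeq2 fit, with Chrdl2 and Tgfbr3. These 2 genes were also called without pair 1 and without pair 3.

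Among secreted antagonists 13 of 16 were tested, and with pairing 2 were called higher and 3 lower. Chrdl2, a chordin-like BMP antagonist, was low but showed the largest change of the list, from 0.620, 1.31 and 0.618 CPM in the control replicates to 2.55, 3.08 and 1.17 CPM in the DKK1 replicates, or 14 to 37 against 27 to 107 counts. Control replicate 2 lay above DKK1 replicate 3, and DKK1 was higher in each pair, by 4.11, 2.35 and 1.89 times. On the log2 scale the change was 1.40 in both fits, with an SE of 0.42 without pairing (edgeR adjusted p = 0.248) and 0.25 with it (adjusted p = 0.00233). The 3 genes called lower with pairing were Htra1, a secreted protease that can bind BMPs and TGF-beta, at -0.21, the antagonist Nbl1, at -0.13, and Crim1, which tethers BMPs at the membrane, at -0.08 (edgeR adjusted p of 0.0101, 0.0157 and 0.0121, and 0.114, 0.610 and 0.632 without pairing). The paired call of Htra1 ended without pair 3, that of Crim1 without pair 2, and that of Nbl1 without pair 1 or without pair 2. Exons of Crim1 overlap those of Fez2 on the opposite strand. Per kilobase the most abundant gene of this role was Fstl1, a follistatin-like glycoprotein, at 216 ± 8.46 CPM per kilobase in control and 221 ± 10.2 in DKK1 cells (log2 fold change 0.03, edgeR adjusted p = 0.895).

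Of the 12 other ligands 4 were tested, and the most abundant per kilobase was Bmp5, at 8.98 ± 1.34 CPM per kilobase in control and 9.83 ± 2.07 in DKK1 cells (SD, n = 3 each). Exons of Bmp5 overlap those of Gm26903 on the opposite strand. Gdf6 was called lower with pairing (log2 fold change -0.35, edgeR adjusted p = 0.013; 0.625 without), with DKK1 at 0.818, 0.662 and 0.884 times the control of the pair. Gdf10, also called BMP3B, was called higher with pairing (0.30, edgeR adjusted p = 0.0272 with pairing and 0.817 without), at 1.13, 1.27 and 1.37 times. Gdf10 lost the paired call without pair 2 or pair 3 (edgeR adjusted p = 0.241 and 0.106), and Gdf6 without pair 2 (adjusted p = 0.16). Across fits without 1 library the unpaired value of Gdf10 ranged from 0.0258 to 0.5358. The 8 untested ligands held at most 15 counts in any library.

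All 7 receptors and 5 of 6 co-receptors were tested. Bmpr1b, a type I receptor, was called higher with pairing (log2 fold change 0.22, SE 0.06, edgeR adjusted p = 0.0219 with pairing and 0.191 without), from 22.4 ± 1.06 to 26.2 ± 1.23 CPM (SD, n = 3 each), and its groups did not overlap. Its paired call ended without pair 2 and without pair 3. Of the 46 genes 3 lay wholly above and 2, Htra1 among them, wholly below control, against 9.4% and 7.14% of all tested genes. Tgfbr3, or betaglycan, a co-receptor for TGF-beta and some BMPs, measured 53.9, 63.7 and 50.4 CPM in the control and 73.2, 86.4 and 59.6 CPM in the DKK1 replicates. Control replicate 2 lay above DKK1 replicate 3, and DKK1 was higher in each pair, by 1.36, 1.36 and 1.18 times (log2 fold change 0.38, SE 0.04, edgeR adjusted p = 4.11e-05 with pairing and 0.338 without). Exons of Tgfbr3 overlap those of Gm43422 on the same strand, and its expected counts were not whole numbers in any library. The most abundant per kilobase were the type I receptor Acvrl1, at 24.3 ± 0.323 CPM per kilobase in control and 25.1 ± 1.03 in DKK1 cells, and the co-receptor Eng, at 33.0 ± 2.60 and 32.5 ± 2.95. Both are best known from endothelial cells, and neither was called. Exons of Acvrl1 overlap those of Gm16031, and exons of Eng those of Fpgs, each on the opposite strand.

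Of 8 SMADs and SMAD ubiquitin ligases, all tested, 2 were called lower with pairing. Smad6, an inhibitory SMAD that BMP signals induce, stood at 45.0, 48.5 and 73.8 CPM in control and at 41.2, 44.7 and 63.6 CPM in DKK1 replicates, a ratio of 0.915, 0.921 and 0.861 within pairs (log2 fold change -0.16, edgeR adjusted p = 0.0144; -0.17 and 0.847 without pairing). Without control replicate 3 its unpaired value turned to 0.07 (edgeR adjusted p = 0.934). Smad9, a receptor-activated SMAD, stood at 20.1, 16.7 and 27.4 CPM in control and at 16.2, 14.7 and 23.5 CPM in DKK1 replicates (log2 fold change -0.24, edgeR adjusted p = 0.0154 with pairing and 0.751 without). Across fits without 1 library its unpaired value ranged from -0.4655 to -0.0427. The paired call of Smad9 ended when any 1 pair was left out, and that of Smad6 without pair 2 or without pair 3. In both genes replicate 3 of either group exceeded every replicate 1 and 2. The most abundant per kilobase was Smad4, the common partner of the receptor-activated SMADs, at 25.0 ± 0.631 CPM per kilobase in control and 25.5 ± 0.524 in DKK1 cells (edgeR adjusted p = 0.883). Of 6 tested response genes outside the ID members, Hes1, better known as a Notch target, was called lower with pairing (log2 fold change -0.21, edgeR adjusted p = 0.0182; 0.476 without). The transcription factor gene Atoh8 stood at 26.1 ± 6.26 CPM per kilobase in control and 24.1 ± 5.88 in DKK1 cells, the highest mean of this role per kilobase of merged exons, while Hes1 was higher in control with the longest transcript as the length. Atoh8 was not called in these fits (edgeR adjusted p = 0.0507 with pairing), and was called in the paired fit with DESeq2 size factors (adjusted p = 0.0487). None of the 3 E protein genes was called, of which Tcf3 was the most abundant at 23.5 ± 0.551 and 24.2 ± 0.433 CPM per kilobase.

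**Figure D3:**
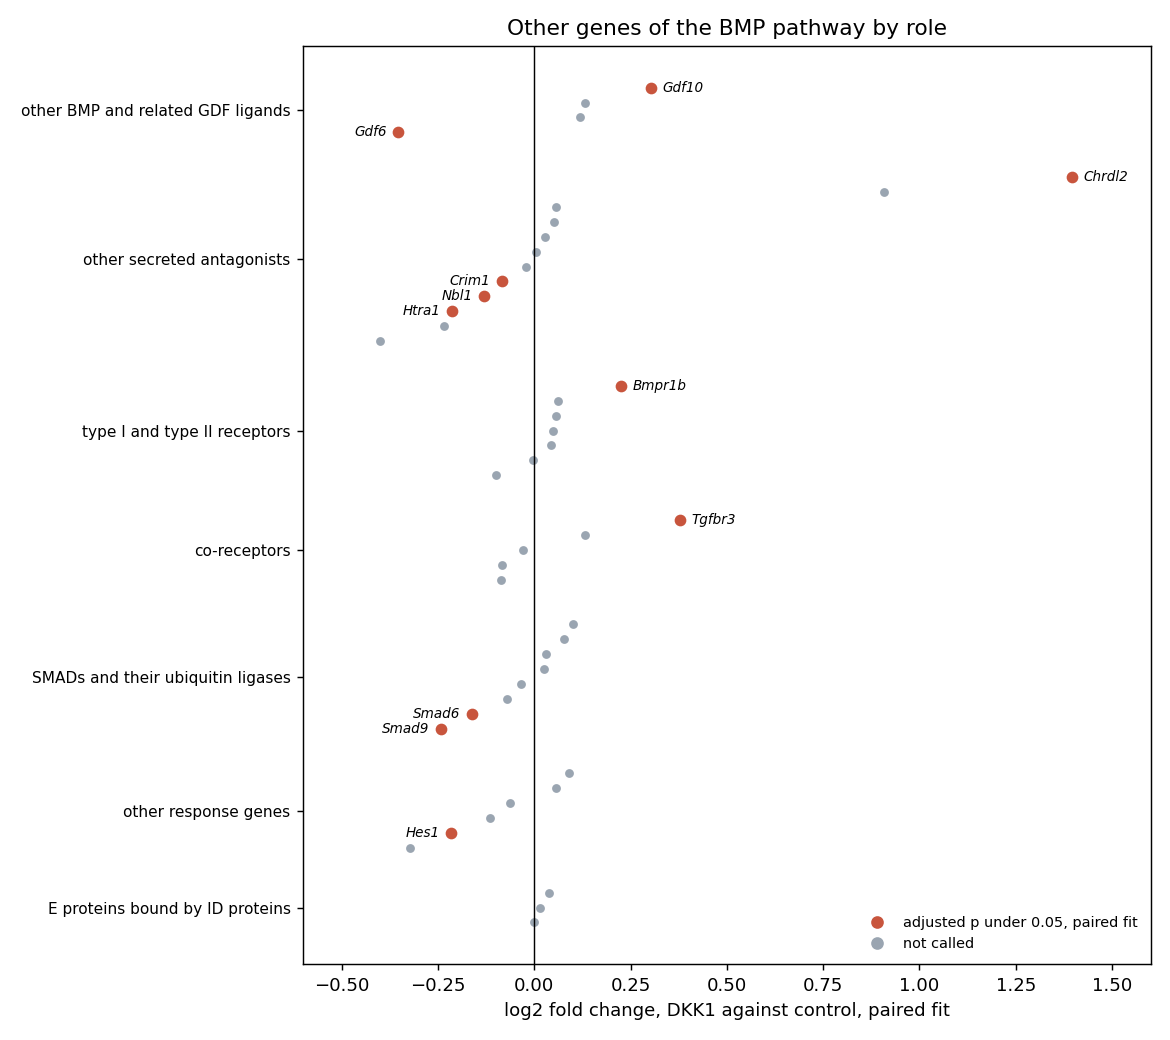
Log2 fold change, DKK1 against control, of the tested pathway genes outside the 9 members, with 1 gene not shown (x axis, paired edgeR fit), grouped by role (y axis) and sorted within a role. Red points with names were called in the paired fit. Chrdl2 lies farthest to the right, at 1.40, and 7 called genes lie to the left of 0.

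Replicate 3 of both groups was the highest library for many of these genes. Id1, Id2 and Id3 all had replicate 3 as the highest library of both groups, which held for 20.6% of all tested genes, and Bmp2 and Bambi shared this, which makes 5 of 9 members. So did 16 of the 46 other pathway genes, among them 4 of 8 SMADs and ubiquitin ligases, 4 of 6 other response genes and 6 of 13 secreted antagonists. In the remaining roles it held for 1 of 7 receptors, 1 of 4 ligands, 0 of 5 co-receptors and 0 of 3 E protein genes. In the control group replicate 3 held 1.27, 1.20 and 1.17 times the mean of replicates 1 and 2 for Id1, Id2 and Id3, and in the DKK1 group 1.21, 1.12 and 1.15 times. For Smad6 these ratios were 1.58 and 1.48, for Atoh8 1.48 and 1.48, for Smad9 1.49 and 1.52, for Id4 1.41 and 1.54, and for Smad7 1.24 and 1.24; these 5 genes were chosen after their values were seen. Grem1 did not share this pattern, at 1.05 and 0.996. The excess of replicate 3 in Id1, 1.27 and 1.21 times, was larger than the DKK1 effect on Id1, at 1.03-fold.

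Markers of cell types other than fibroblasts were also highest in replicate 3. The 8 endothelial markers summed to 30.5, 27.0 and 73.5 CPM in control and 34.4, 24.8 and 74.3 CPM in DKK1 replicates. The 9 epithelial markers summed to 41.9, 48.8 and 128.5 CPM in control and 43.3, 39.2 and 128.5 CPM in DKK1 replicates, and the 4 mesothelial markers to 9.73 to 10.9 CPM in replicates 1 and 2 of both groups and 28.1 and 31.6 CPM in replicate 3. All 8 endothelial and all 4 mesothelial markers passed the filter on low counts, and 8 of 9 epithelial markers did, and none of the markers of these 3 types was at 0 in every library. Of the leukocyte markers 2 of 10 were at or under 3 counts in every library, Cd79a of B cells and Cd3e of T cells, the latter at 0 in all 6. None of the endothelial, epithelial or mesothelial markers was called between control and DKK1 in either fit. The part of these cells in the replicate 3 levels of the ID genes was not tested. Without replicate 3 of both groups, the paired fit still called Grem1 and Bmper (edgeR adjusted p = 5.44e-06 and 0.0175) and none of the ID genes.

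**Figure D4:**
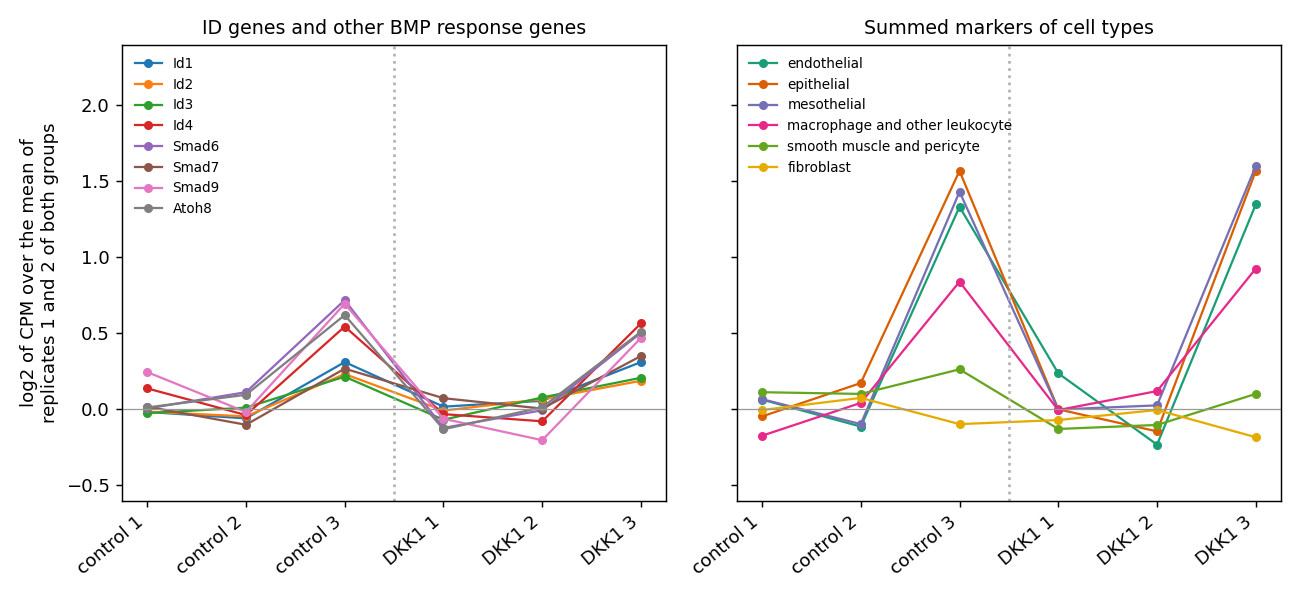
Log2 of the CPM of each library (x axis) over the mean of replicates 1 and 2 of both groups (y axis), for the 3 ID members and 5 other genes chosen after their values were seen (left) and for the summed markers of 6 cell types (right). The replicate 3 libraries of both groups stand above the others of their group for these 8 genes. They also do so for endothelial, epithelial, mesothelial, leukocyte, and smooth muscle and pericyte markers, and not for fibroblast markers.

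The tested genes whose pattern over the 6 libraries was most like that of a member were found by the root mean square difference of their log2 CPM deviations, among the 13020 genes that averaged 1 CPM or more. For Grem1 these were Timp1 (a difference of 0.03 on the log2 scale, with 0.19 the median over genes), mt-Nd6 (0.03) and Sgk1 (0.04). Timp1, an inhibitor of metalloproteinases, rose by 0.34 on the log2 scale (edgeR adjusted p = 0.0145) and Sgk1, a kinase gene, by 0.33 (adjusted p = 0.0278). mt-Nd6, a mitochondrial gene, was called with pairing (0.32, edgeR adjusted p = 3.74e-06) and not without it (adjusted p = 0.0875). For Id1 they were Wnk4, Mtln and Osbpl10 (0.03, 0.03 and 0.04, median 0.17), with Smad7 at rank 11, Id2 at rank 21 and Id3 at rank 46, but Id4 at 3161, Atoh8 at 4258, Smad6 at 7271 and Smad9 at 9410. For Id3 they were Wdr37, Plagl1 and Slc25a13 (0.02, 0.03 and 0.03, median 0.14), with Id2 at rank 19 and Id1 at rank 236, but Smad7 at 1901, Atoh8 at 9169, Id4 at 9611, Smad6 at 10227 and Smad9 at 11112. With 6 libraries such likeness is a description, since many genes share the contrast of replicate 3 or of DKK1.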

How the data were processed

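RNA was sequenced from 3 control and 3 DKK1-treated samples. The authors deposited expected counts per gene, unscaled and 1 column per sample. The submitters' processing notes name STAR, RSEM, edgeR 4.2.1 and the builds GRCm38 and mm10; the annotation release, strandedness and filters are not given in the sources used here. Symbols were found for 45143 of 45706 gene identifiers. Locations and exon lengths came from GENCODE M21 (GRCm38), which holds 98.7% of the table's transcript identifiers. All 54 expected counts of the 9 members were whole numbers.

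Expected counts were rounded and tested with edgeR 4.0.16 under R 4.3.3 (filterByExpr with a minimum count of 10, TMM factors, quasi-likelihood test, two-sided, Benjamini-Hochberg adjustment over 14635 genes, called at an adjusted p under 0.05), after the script was tested on simulated data. Standard errors are the absolute log2 fold change over the square root of F, and 95% intervals follow from them with the fit's degrees of freedom. CPM uses the whole library, where 3 counts, the floor of detection, are 0.0864 to 0.133 CPM and cover counting error only. Same-numbered libraries had correlated deviations from their group means across genes (0.23 to 0.41 in the 3 pairs), with the numbers taken from the sample titles, so the fit with the replicate block is printed where it changes a call. Alternatives also used DESeq2 1.42.0 and limma 3.58.1. The members, lists and tests were chosen with earlier results of these data known. Genes named beside the members were those of the pathway list called in either fit (1 of them is counted but not reported here), the most abundant tested gene of each role, and the 3 genes most like Id1, Id3 and Grem1; Id4 and Smad7 were added after their values were seen.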

Additional observations from a re-analysis of the deposited data

How the results depend on the processing

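Of the members, Grem1 was the one call without pairing, and it held under DESeq2 size factors, library totals, unrounded counts, DESeq2, limma-voom, no low-count filter and a filter that asks for 10 counts in each library. The number of members called was 0 to 0 across the 6 fits that left out 1 library and 0 without replicate 3 of both groups, 2 with the replicate block (TMM, DESeq2 size factors or library totals), and 3, 1 and 2 with the block and without pair 1, 2 or 3. The other pathway genes had 0 calls in each fit without the block and 12 with the replicate block (12 with library totals, 13 with DESeq2 size factors, 2 in DESeq2, and 10, 3 and 8 without pair 1, 2 or 3). Over all genes the 131 calls became 329 with no low-count filter, 289 in DESeq2, 36 to 139 without 1 library, 149 without replicate 3 of both groups, and 1379 with the replicate block (1381 with DESeq2 size factors, 1374 with library totals, 551 in DESeq2, and 1312, 612 and 1059 without pair 1, 2 or 3), and the share called higher went from 102 of 131 to 726 of 1379. The fits without replicate 3 of both groups or without a pair, paired DESeq2, and the block with other scalings were chosen after seeing the data. The cause of these shifts was not tested; the fits with fewer samples or no filter also test other numbers of genes.

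Signs turned for genes not called in the fit that turned them; of these Smad6 is called lower with the replicate block, Atoh8 is called lower with the block and DESeq2 size factors, and Bmp5 is called higher with the block and without pair 3. Id3 was -0.001 with DESeq2 size factors, -0.0004 with the minimum of 10 counts and in paired DESeq2, -0.0007 in DESeq2 and -0.0008 in limma-voom. With the block and without pair 2, Id3 was -0.0288, Id2 -0.0225 and Bmp2 0.193; without pair 3, Bmp6 was -0.314 (-0.302 without the block) and Smad4 -0.0086 (-0.0092). Across the fits without 1 library the log2 fold change ranged from -0.36 to 0.145 for Bmp2, -0.133 to 0.283 for Bmp6, -0.0345 to 0.134 for Bambi, -0.0504 to 0.158 for Id1, -0.033 to 0.102 for Id2, -0.0651 to 0.0707 for Id3, -0.375 to 0.0694 for Smad6, -0.0525 to 0.24 for Bmp5, -0.0144 to 0.0638 for Fstl1, -0.104 to 0.0393 for Eng, -0.0015 to 0.0417 for Smad4 and -0.323 to 0.0829 for Atoh8. Bmp2, Bmp6 and Chrdl2 rest on 14 to 107 counts per library.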
